A study of Caenorhabditis elegans with 2 samples.

Results

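The mitochondrial ribosomal protein genes of the nematode Caenorhabditis elegans were examined for binding of PHP-3, a Hox protein of the posterior group. Members were the protein-coding genes of the Ensembl WBcel235 annotation with an mrpl or mrps name followed by a number. There were 70 of them among 19973 protein-coding genes on 6 chromosomes, 41 named for the large subunit (mrpl) and 29 for the small subunit (mrps). This division is by gene name. RefSeq goes against it at mrps-18C, whose product it calls a large-subunit protein, and at mrpl-48, whose product it names only for a domain of a small-subunit protein. The assay was ChIP-seq, the sequencing of DNA recovered with a protein by immunoprecipitation of chromatin, on whole animals at the L4 larval stage (48 hours), synchronised by bleaching and starvation at L1. Both samples came from strain RW12213, in which CRISPR had put the st12213[php-3::TY1::EGFP::3xFLAG] III tag at php-3, and an antibody against GFP recovered the protein. They are 2 biological replicates of that 1 group, so there was no other genotype, stage or untagged sample to set them against. All cells of the animal were pooled, so the cells in which a site was bound are not known.

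The mitochondrial ribosome translates the few respiratory chain proteins that the mitochondrial genome encodes. Its RNAs come from that genome, whereas its proteins are encoded in the nucleus, translated in the cytosol and imported. In C. elegans, loss of ribosomal proteins such as MRPS-5 unbalances mitochondrial and nuclear respiratory subunits, induces the mitochondrial unfolded protein response and lengthens life. Many nematode genes, housekeeping genes in particular, stand in operons, where genes of the same direction share the promoter of the first. PHP-3 and its neighbour NOB-1 pattern the tail of the embryo.

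PHP-3 marked the promoters of mitochondrial ribosomal protein genes in about the same share as those of protein-coding genes at large. A promoter reached from 1000 bp upstream to 200 bp downstream of the annotated 5′ end, and a gene was counted where the summit of a peak, its highest position, lay in that window. In the authors' series-wide list of 3559 peaks, kept from both replicates by a limit on their irreproducible discovery rate, 5 of 70 members had a summit (7.14%, exact binomial 95% interval 2.36 to 15.9). The same list marked 7.95% of all protein-coding genes. The marked members were mrpl-23, mrps-7, mrpl-45, mrpl-32 and mrps-21, that is 3 of 41 mrpl genes (7.32%) and 2 of 29 mrps genes (6.90%). With mrps-18C, which was unmarked, counted as large by its product, the shares were 3 of 42 (7.14%) and 2 of 28 (7.14%). The interval covers the counting of genes only, and no test was made, as the study has a single group.

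The sequences at 4 of these summits are printed because they are the binding positions on which the count rests. Each is the plus strand from 50 bases before to 50 bases after the summit, read from the RefSeq genome WBcel235 (ce11 coordinates). Capitals mark every match, on either strand, to TTTAT or TTTAC, the core letters that posterior Hox proteins prefer, and to TAAT, the general homeodomain core. The windows are chrIV:14767883-14767983 for mrps-7, chrIII:1202300-1202400 for mrpl-45, chrIII:8449382-8449482 for mrpl-32 and chrIV:4660405-4660505 for mrps-21.
mrps-7: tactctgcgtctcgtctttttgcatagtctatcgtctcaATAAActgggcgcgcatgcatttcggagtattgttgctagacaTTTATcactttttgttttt
mrpl-45: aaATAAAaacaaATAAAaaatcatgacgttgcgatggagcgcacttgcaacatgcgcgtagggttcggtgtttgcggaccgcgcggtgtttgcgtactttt
mrpl-32: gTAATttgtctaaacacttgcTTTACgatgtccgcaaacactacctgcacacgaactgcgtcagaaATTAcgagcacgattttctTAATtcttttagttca
mrps-21: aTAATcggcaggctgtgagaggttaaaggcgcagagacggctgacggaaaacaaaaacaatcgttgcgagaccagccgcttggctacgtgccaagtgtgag

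None of the letters searched was in all 4 printed windows. The mrps-7 and mrpl-45 windows each held 2 matches to TTTAT, the mrpl-32 window held 1 to TTTAC and 3 to TAAT, and the mrps-21 window held 1 to TAAT. With the window at mrpl-23, which is not printed, TTTAT was in 2 of 5 member windows, against 46.6% of the 1405 windows of this length at promoter summits of any gene. TTTAC was in 1 of 5 (19.8% of all), TAAT in 2 of 5 (52.7%) and TTTATG, which contains TTTAT, in 0 of 5 (14.7%). Of the other letters searched on both strands, GATAA, the core of sites for GATA factors, was in 1 of 5 (43.9% of all), GAGAG in 2 of 5 (24.8%), the E-box CACGTG in 0 of 5 (4.91%) and TATAAA, whose reverse strand also holds TTTAT, in 0 of 5 (10.8%). CTGCGTCTC stood in 1 of 5, the mrps-7 window (4.48% of all). G and C made up 39.6% of the window at mrps-7, 46.5% at mrpl-45, 38.6% at mrpl-32, 53.5% at mrps-21 and 57.4% at mrpl-23, and the median of all promoter windows was 41.6%. The counts depend on the length searched. With 100 bases to each side of the summit, TAAT was in 5 of 5 windows (77.6% of all) and TTTAT in 3 (70.2%), and TTTAC (39.1%) and TTTATG (23.7%) were in 2 each. A match describes the letters and shows no binding by itself.

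The marked members' peaks were spread from the upper to the lower ranks of the list. Their signal values, which the authors' list gives for each peak, were 180 at mrpl-23, 132 at mrps-7, 107 at mrpl-45, 102 at mrpl-32 and 95.5 at mrps-21. In the order of the 3559 peaks these stood at ranks 740, 1483, 2190, 2358 and 2640. Their median was 107, against 130 for the strongest summit of each of the 1587 marked protein-coding genes, and 2 of 5 were above that median. The middle 80% of marked genes lay from 88.0 to 268, as did all 5 members.

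No member was marked in both replicates by its own list. Replicate 1's list of 1728 peaks marked 2 of 70 members (2.86%, exact interval 0.348 to 9.94), mrpl-23 and mrps-7, against 4.22% of all protein-coding genes. Replicate 2's list of 2000 peaks marked 1 of 70 (1.43%, exact interval 0.0362 to 7.70), mrpl-32, against 4.69%. Near mrpl-23, the ranked peaks of replicate 2 included one of 108 with its summit at -1025 bp, just outside the window. In both own lists together, 0 of 70 members were marked, which allows a share of up to 4.29% by a floor of 3 genes of the total and 5.13% by the exact interval, against 3.23% of all genes. Of the 1587 genes that the series-wide list marked, 40.3% were in both own lists and 32.7% in neither, and among the 5 members 0 were in both and 2, mrpl-45 and mrps-21, in neither. The conservative series-wide list of 3495 peaks marked the same 5 members (7.14%), against 7.82% of all genes. Read depth is unknown, so a member without a peak was not detectably bound in these lists, and absence is not shown.

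**Figure D1:**
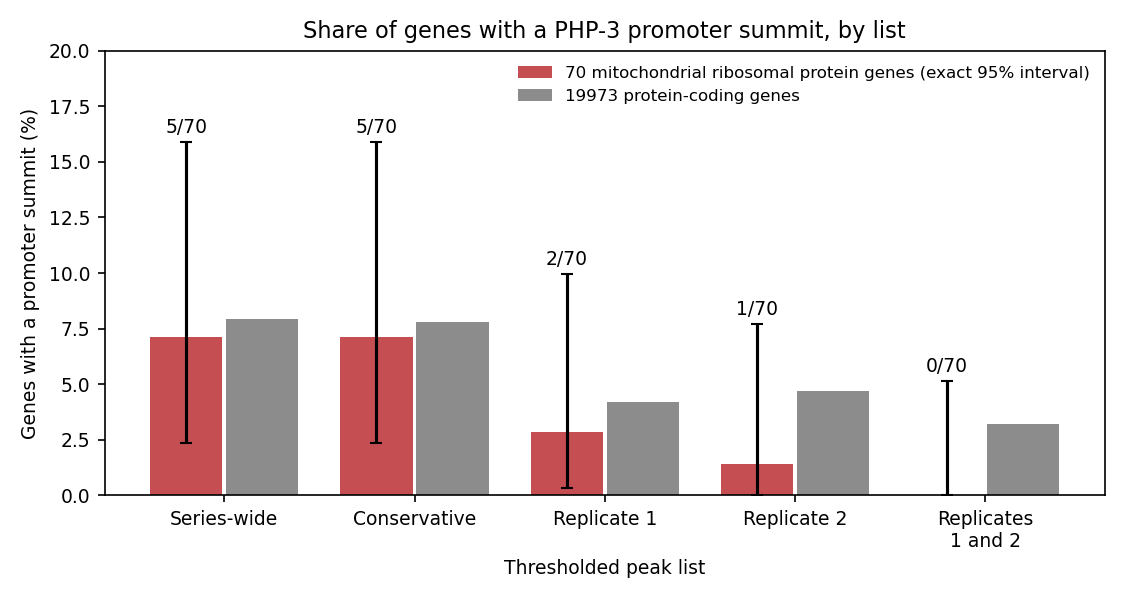
Share of genes with a PHP-3 summit in the promoter window (y axis, percent) in each thresholded peak list (x axis), for the 70 members (red, exact 95% intervals of gene counting, counts above) and all 19973 protein-coding genes (grey). The members' share was 7.14% against 7.95% in the series-wide list and 0 against 3.23% in the own lists of both replicates.

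Each marked gene was then read in its surroundings. The strongest summit, at mrpl-23 (WBGene00020348), belonged to a peak on chromosome I (6212707 to 6213030) and stood 984 bp upstream of the gene's 5′ end, just inside the window. MRPL-23 is the counterpart of a bacterial protein at the exit of the peptide tunnel. The summit lay in an intron of fars-1, the phenylalanyl-tRNA synthetase gene upstream of mrpl-23 on the same strand, and inside a 72 bp pseudogene (WBGene00023344), which RefSeq annotates as a tRNA pseudogene. The snoRNA gene T08B2.13 and the noncoding gene T08B2.14 were within 300 bp. Ranked-list peaks over this interval had signal values of 76.4 in replicate 1 and 108 in replicate 2. The replicate 2 peak had its summit outside the window, where the highest replicate 2 signal was 29.0. The high value of replicate 2 therefore does not count for mrpl-23 by the rule.

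At mrps-7 (WBGene00013324), whose bacterial counterpart starts the assembly of the head of the small subunit, the peak (IV, 14767771 to 14768094) had its summit 203 bp upstream. The signal was 86.2 in replicate 1 and 48.0 in replicate 2. The replicates have separate lists, with medians over all genes with a ranked summit of 27.2 and 28.1. Within the window, mrps-7 and mrpl-23 were higher in replicate 1, and the other 3 marked members in replicate 2. The divergent gene Y57G11C.3, annotated by RefSeq as a putative 6-phosphogluconolactonase, had the same summit 268 bp upstream, so either gene could be assigned. At mrpl-45 (WBGene00022493), whose human counterpart tethers the ribosome to the inner membrane, the peak (III, 1202188 to 1202511) had its summit 342 bp upstream. Signals were 50.3 in replicate 1 and 56.4 in replicate 2, close to each other. The divergent gene Y119D3B.12, annotated as a Luc7-like protein, was nearer, at 196 bp.

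At mrpl-32 (WBGene00016249), whose yeast and mouse counterparts are matured by the mitochondrial m-AAA protease, the peak (III, 8449270 to 8449593) had its summit 325 bp upstream and 86 bp past the 3′ end of rpn-3, a proteasome subunit gene of the same direction. No other protein-coding gene had this summit in its window. Signals were 46.2 in replicate 1 and 57.2 in replicate 2. Replicate 2's own list held a second summit here with a signal of 2.04. At mrps-21 (WBGene00017924) the peak (IV, 4660293 to 4660616) had its summit 938 bp upstream, on the far side of F29B9.11, a cytochrome c oxidase subunit VIIc gene by its RefSeq annotation. That gene was 254 bp from the summit, and jmjd-1.2, a histone demethylase gene, was 536 bp from it on the other side. Signals were 37.5 in replicate 1 and 67.2 in replicate 2. Of the 5 member summits, 3 were thus shared with the window of another protein-coding gene, against 19.7% of the 1405 promoter summits of the list. A summit in several windows has more ways to fall in a member's window, so these shares are not like for like, and 5 summits are few. With each shared summit given only to the nearest 5′ end, mrpl-23, mrpl-32 and mrps-7 kept theirs.

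**Figure D2:**
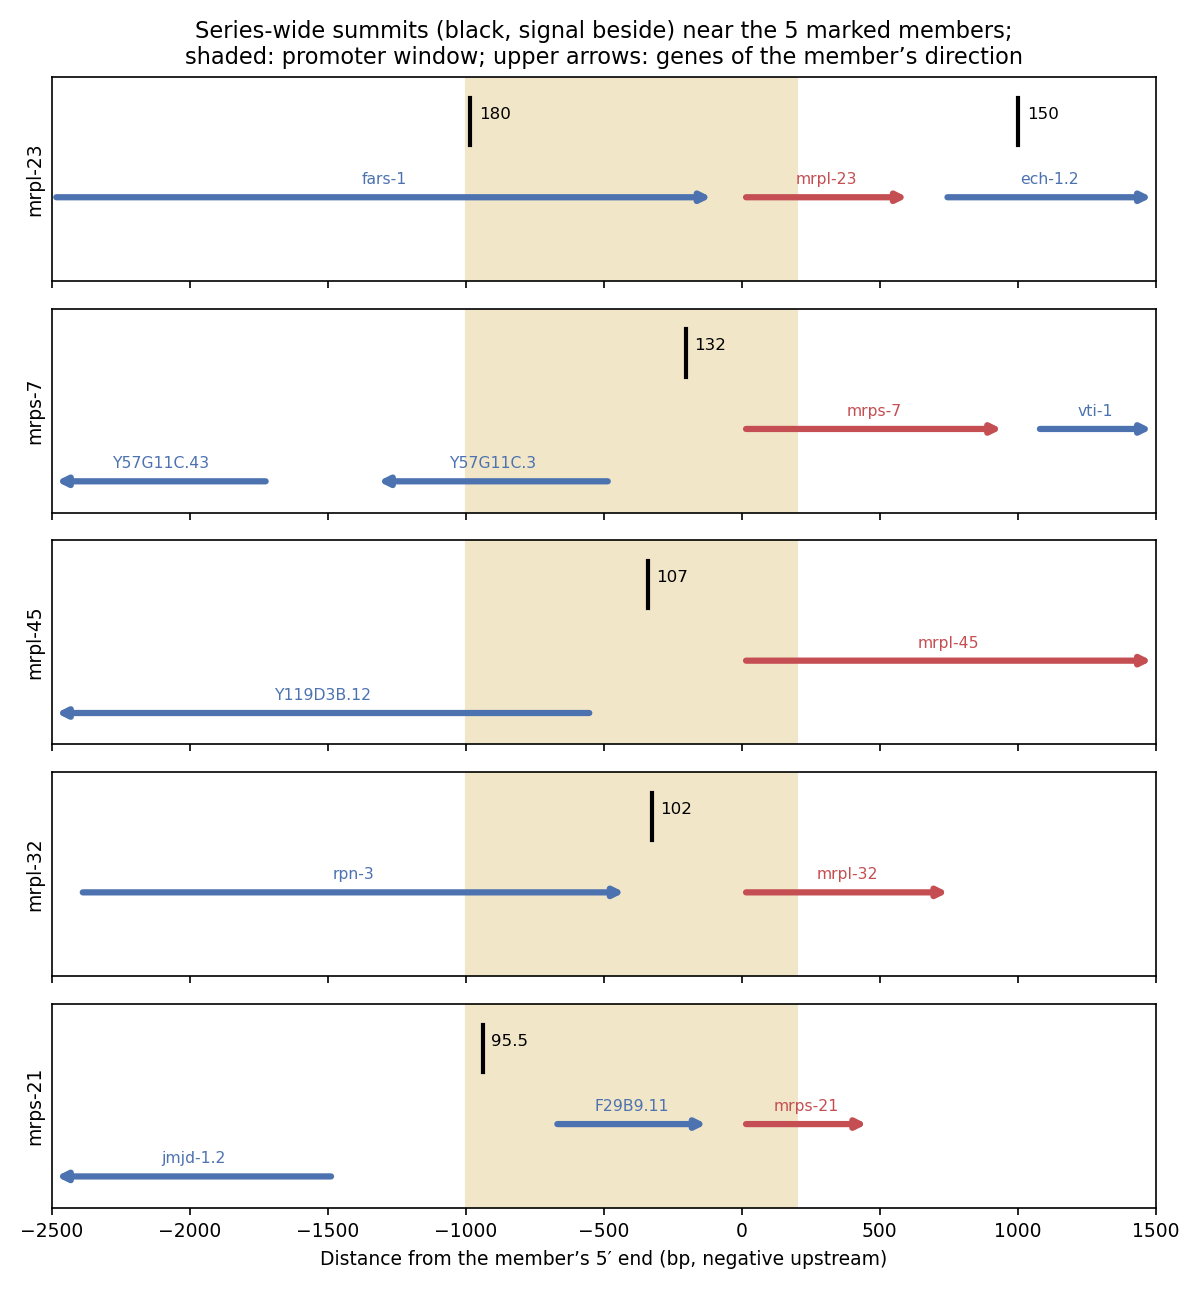
Genes (arrows, members in red, genes of the opposite direction on the lower line) and series-wide summits (black bars with their signal values) around the 5 marked members; the x axis is the distance from the member's 5′ end in bp and the shaded band is the promoter window. The summits at mrpl-23 and mrps-21 stood 984 and 938 bp upstream, beyond or inside another gene, and the other 3 within 342 bp.

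The unmarked members were followed into the ranked lists, which hold peaks before the limit on reproducibility and so include many weak ones. A ranked summit lay in the window of 45 of 70 members in replicate 1 (64.3%), against 45.9% of all protein-coding genes, and of 40 of 70 in replicate 2 (57.1%), against 50.7%. A summit counted for every window that held it, as the replicate 1 summit of 42.2 did for both mrpl-1 and mrps-24. Both replicates had one at 31 members (44.3% of 70, against 33.5% of all genes), replicate 1 alone at 14 (all genes 12.4%), replicate 2 alone at 9 (all genes 17.2%) and neither at 16 (all genes 36.9%). The highest signal per gene had a median over members of 28.2 in replicate 1, where all genes with a ranked summit had 27.2, and of 29.9 in replicate 2, where all genes had 28.1. Members ranged from 2.74 to 86.2 in replicate 1 and from 12.5 to 67.2 in replicate 2. Over the 31 members with both, the mean of the replicates' log2 signals had a median of 4.83, against 4.89 over 6684 genes. In replicate 1 the exact interval of the members' share (51.9 to 75.4) lay above the 45.9% of all genes. In replicate 2 (44.7 to 68.9) and in both replicates (32.4 to 56.7) the interval contained the share of all genes. For neither replicate it (13.7 to 34.4) lay below the 36.9% of all genes. The median height of the highest summit was close to that of genes at large. These differences were not tested, and the shares were not split by the closeness of neighbouring genes.

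The highest signals of the replicates ordered the members only loosely. Spearman's rho between these signals was 0.33 over the 31 members, which share libraries and processing, and 0.61 over 6684 genes, and no p is given. Each signal was the highest anywhere in the window, so some pairs were different summits, as at mrps-25 (61 and -985 bp from the 5′ end). The replicate means also had a narrower interquartile range over members (4.58 to 5.11) than over all genes (4.54 to 5.41). The rule of the highest signal was the same for all genes. Whether different summits or the narrower range bear on rho was not tested. The 2 replicates differed at a member by a median of 0.46 on the log2 scale, against 0.39 over all genes. The mrpl genes had medians of 28.2 in replicate 1 (26 genes) and 28.8 in replicate 2 (25 genes), and the mrps genes 22.0 (19 genes) and 34.1 (15 genes), so their order was reversed between replicates.

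**Figure D3:**
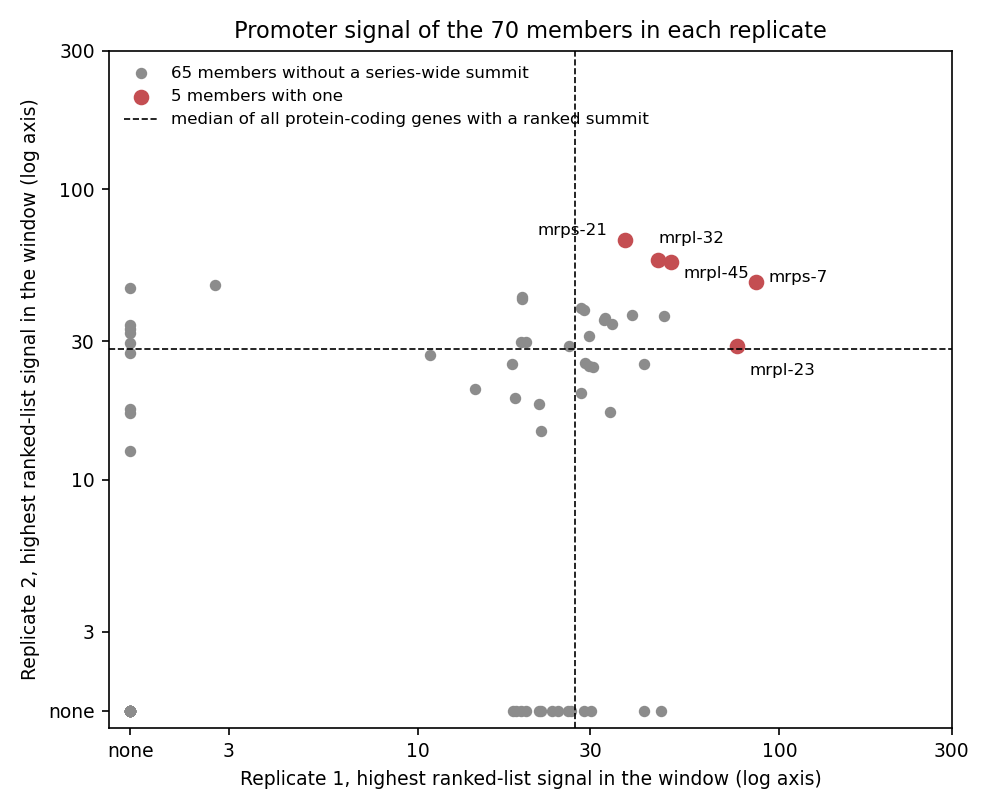
Highest ranked-list signal in the promoter window of each of the 70 members in replicate 1 (x axis, log scale) and replicate 2 (y axis, log scale); members with no ranked summit in a replicate are drawn at "none", and dashed lines are the medians of all protein-coding genes with a ranked summit, 27.2 and 28.1. The 5 marked members (red) lie above both medians, mrpl-23 only just above that of replicate 2.

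Of the 65 unmarked members, 52 had a summit in the ranked list from which the series-wide list was kept (80.0%), against 62.9% of all unmarked protein-coding genes. Their signals were 10.6 to 83.2 with a median of 39.9. The score that the authors scaled from the discovery rate, of which the series-wide list keeps 830 and above, was at most 724 for these members and had a median of 128. The weakest marked member was mrps-21, at a score of 856. The 5 unmarked members with the highest replicate mean were mrps-35, mrpl-49, mrpl-54, mrpl-19 and mrpl-41. At mrps-35, a protein without a bacterial counterpart, signals were 48.0 in replicate 1 and 36.7 in replicate 2, and the score of 724 was the nearest to the limit. At mrpl-49, also specific to mitochondria and divergent from the cytosolic ribosomal protein gene rpl-28, they were 39.1 and 37.0. The series-wide ranked list held no summit in the window of mrpl-49, so that gene had no score there. The summits of mrpl-54 (33.0 and 36.0), mrpl-19 (34.4 and 34.4) and mrpl-41 (32.8 and 35.4) lay 120 to 175 bp downstream of the 5′ end in both replicates. All 3 are genes close behind another of the same direction. On the series-wide scale the highest unmarked value, 83.2 at mrps-35, was below the lowest marked one, 95.5 at mrps-21.

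The next genes were looked up after the values had been seen. At mrps-5, the gene known for its effect on lifespan, only replicate 2 had a ranked summit (33.0), and the nearest series-wide summit stood 13113 bp away. At mrps-6 the highest signals of the replicates differed most, with 2.74 in replicate 1 and 46.7 in replicate 2. They came from different summits, at 116 bp and -801 bp from the 5′ end (negative upstream). The 16 members with no ranked summit in either replicate included 7, mrpl-11, mrpl-13, mrpl-15, mrpl-16, mrpl-21, mrpl-4 and mrps-18B, for which the series-wide ranked list had none either. Over all members the nearest series-wide summit was a median of 9237 bp from the 5′ end, with a range of 203 to 68958 bp, against 13457 bp over the 17242 autosomal protein-coding genes. The difference was not tested, nor was it split by the closeness of neighbouring genes.

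Members were placed unevenly among the chromosomes. They lay on I (15), II (12), III (22), IV (11) and V (10), and 0 of 70 on X, which carried 13.7% of protein-coding genes. X genes were marked in 10.1% of cases. Against autosomal genes only, of which 7.60% were marked, the members' 7.14% was again close.

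Members had close neighbours upstream in a larger share than genes at large, which was not tested. A protein-coding gene of the same direction ended less than 500 bp upstream of 27 of 70 members (38.6%), against 18.1% of all genes. A divergent 5′ end lay within 1000 bp of 26 (37.1%), against 17.5%, which left 17 (24.3%), against 64.4%, in neither class. Summits were counted in each class. Of the 27 members close behind another gene, 3 were marked (11.1%), namely mrpl-23, mrpl-32 and mrps-21, against 6.29% of all such genes. Of the 26 divergent members, 2 were marked (7.69%), mrps-7 and mrpl-45, against 11.7% of all divergent genes. Of the other 17, 0 were marked, which allows a share of up to 17.6% by the floor of 3 genes and 19.5% by the exact interval, against 7.39%. These classes rest on the direction and distance of the nearest protein-coding gene upstream, and genes that cover the 5′ end were passed over. A gene in neither class can thus still have a close neighbour. Operon annotation was not used here.

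Since genes in operons are transcribed from the promoter of the first gene, the first gene of each run of close same-direction genes was also examined, a count chosen after the data had been seen. The window of that first gene held a series-wide summit for 7 of 27 members (25.9%, exact binomial 95% interval 11.1 to 46.3), against 11.1% of all genes close behind another. With own windows added, 10 of 70 members were reached (14.3%, exact interval 7.07 to 24.7), against 9.70% of all protein-coding genes. The interval of the first share begins at its background value and that of the second contains its own, and neither difference was tested.

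These first genes were of several kinds, and 5 of the 7 also shared their summit with the window of another gene. The run of mrpl-54 began with clsp-1, the claspin gene, with a signal of 204 at a summit shared with eef-2, an elongation factor gene. That of mrps-14 began with nrde-2 (198, a summit 930 bp upstream that was shared with atad-3, which encodes a mitochondrial ATPase). That of mrps-33 began with F21D5.7, a signal recognition particle gene (185, shared with no other). The run of mrpl-32 began with rpn-3 (132, shared with the chaperone gene hsp-110), a summit separate from the one at mrpl-32 itself. These 4 first genes were marked in both replicates' own lists. Those of mrpl-30 (W04B5.5, 103), mrps-21 (F29B9.11, 95.5) and mrpl-48 (vps-37, 95.2) were marked in neither. Ranked signals in replicate 1 and replicate 2 were 115 and 97.0 at clsp-1, 78.5 and 119 at nrde-2, 82.9 and 102 at F21D5.7 and 62.3 and 90.2 at rpn-3, so at each the signal was above that of any member's own window in at least 1 replicate.

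Other genes of ribosomes and mitochondria were counted by the same rule, with lists taken from gene names. These lists were chosen with earlier results of these data known. Of 78 cytosolic ribosomal protein genes, whose products build the ribosome of the cytosol, 29 had a promoter summit (37.2%, exact binomial 95% interval 26.5 to 48.9), with a median signal of 165 among those marked. The share over all protein-coding genes was 7.95%. That interval and the members' (2.36 to 15.9) do not overlap, and no test of the difference was made. Both replicates' own lists marked 15 of those 78 genes and 0 of the 70 members, against 3.23% of all protein-coding genes. The exact interval of the members, up to 5.13%, contains that share. Ranked signals showed the same order, with medians of 45.4 and 42.9 in replicate 1 and replicate 2 for the cytosolic genes and 28.2 and 29.9 for the mitochondrial ones. Close same-direction neighbours were rarer among the cytosolic genes, at 10.3%, than among the members, at 38.6%.

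Of 48 nuclear genes of the respiratory chain, its assembly and the ATP synthase, which include the partners of the proteins made on the mitochondrial ribosome, 9 were marked (18.8%, exact interval 8.95 to 32.6, all protein-coding genes 7.95%) with a median of 167. They were led by cox-5A (283), a cytochrome c oxidase subunit gene, nduf-2.2 (230), a complex I subunit gene, and atp-1 (195), the ATP synthase alpha subunit gene, and 7 of the 9 were in both replicates' own lists. Of 8 genes of mitochondrial translation factors and chaperones 2 were marked, the chaperone genes hsp-60 (414) and hsp-6 (98.3), while the elongation factor genes tufm-1, tufm-2, tsfm-1 and gfm-1, the co-chaperone gene dnj-10 and the ribosomal gene dap-3 were not. Of 11 aminoacyl-tRNA synthetase genes with names of the form ears-2, a form mostly used for mitochondrial enzymes, 2 were marked, ears-2 (160) and pars-2 (90.0), and of the 20 of the form kars-1, 2 were marked, kars-1 (204) and aars-1 (166). Of 13 import genes, 2 were marked, tomm-20 (167) and timm-23 (128). The intervals of the lists of 8 to 20 genes all include the share over all protein-coding genes, and such short lists can show only large differences.

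**Figure D4:**
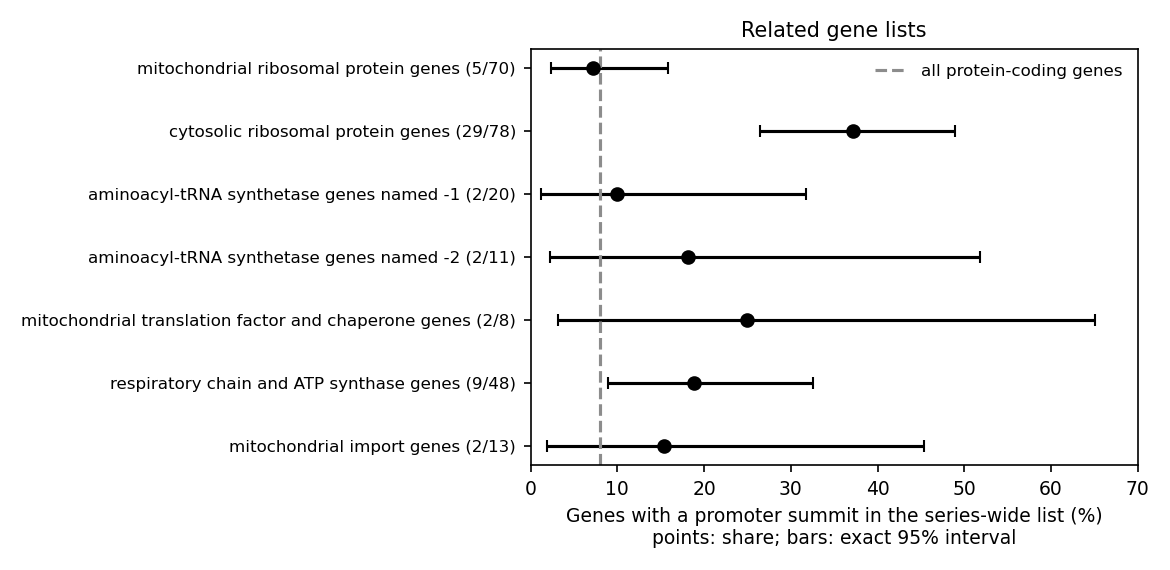
Share of genes with a promoter summit in the series-wide list (x axis, percent) for the members and 6 related lists (y axis, marked and total genes in brackets), with exact 95% intervals of gene counting; the dashed line is the share over all protein-coding genes, 7.95%. The cytosolic ribosomal protein genes, at 37.2%, and the respiratory chain genes, at 18.8%, have intervals above the line, and the interval of the mitochondrial ribosomal protein genes contains it. The lists were chosen with earlier results of these data known.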

How the data were processed

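Per the labels, PHP-3 tagged with EGFP was profiled in 2 biological replicates on assembly ce11. Which aligner and peak caller they ran is not given in the sources used here. Peak lists were deposited by the authors with a signal value per peak and a score scaled from the irreproducible discovery rate. Members were set against other genes within a list only; replicates' signals come from separate lists, and their differences are descriptions with no test. Own lists and ranked lists were assigned to replicates by the deposited sample records. All 3559 rows of the series-wide list were found in its ranked list. Read depth is unknown.

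Genes came from Ensembl release 115 (WBcel235), and sequence and gene products from RefSeq; 0 peaks ended beyond a chromosome. A replicate's signal at a series-wide peak is that of the strongest ranked peak overlapping it by 1 bp. Intervals are exact Clopper-Pearson and cover gene counting only. The assignment of summits was checked on 200 planted summits, of which 200 were recovered. Members and lists were chosen with earlier results of these data known. Named genes were all marked members, the 5 strongest unmarked ones and up to 3 per related list; others are named as chosen later. The elongation factor genes, dnj-10 and dap-3, all unmarked, were named after their values had been seen, as were members with no ranked summit and run-first genes. Alternatives were other lists, windows and assignment rules. The tools were Python 3.11.15 with scipy 1.17.1, pandas 2.3.3, numpy 2.4.6 and, for figures, matplotlib 3.10.9.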

Additional observations from a re-analysis of the deposited data

How the results depend on the processing

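The 5 marked members were also those of the conservative list, of peaks with a signal of at least 50 and of windows at any transcript start. The count was 1 (4.69% of all genes) without replicate 1 and 2 (4.22%) without replicate 2, and 2 (4.57%) with peaks above the median signal. It was 3 (5.93%) with 500 bp upstream, 11 (10.9%) with 2000 bp upstream, 8 (8.74%) by overlap of the peak interval, 8 (13.3%) by the nearest 5′ end, of which 3 were among the 5, 3 (6.67%) by the nearest gene of those sharing a summit, and 10 (9.70%) with the first gene of a run, an alternative chosen after seeing the data. The members' share was below that of all genes except with 2000 bp upstream, by interval overlap and with the first gene of a run. The median signal of marked members was 57.2 without replicate 1 and 81.3 without replicate 2, on the scale of single-replicate lists (92.4 and 85.4 over all genes), and 102 with 2000 bp upstream. The median log2 ranked signal was 4.82 to 4.90 with either replicate left out (all genes 4.76 and 4.81) and 4.94 with 500 bp upstream (all genes 4.91). TTTAT was in 1 of 5 windows with 25 bases to each side of the summit and in 3 of 5 with 100; TAAT was in 1 of 5 and 5 of 5. The causes were not tested.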

Other observations

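Another 6 members had a series-wide summit between 1000 and 2000 bp upstream, outside the window (8.57%), against 2.99% of all protein-coding genes, which was not tested. They were mrps-28 (signal 196 at 1092 bp), mrpl-1 (188 at 1332 bp), mrpl-24 (95.7 at 1915 bp), mrpl-48 (95.2 at 1606 bp), mrpl-20 (91.9 at 1247 bp and 5.54 at 1027 bp) and mrpl-12 (86.9 at 1049 bp). The summit at mrpl-48 was the one already counted at vps-37, the first gene of its run. The summits at mrps-28 and mrpl-1 were stronger than all those inside a member's window. The genes mrpl-1 and mrps-24 face away from each other, with the 5′ end of emc-6 between theirs. The nearest summit to mrps-24 was the same one listed for mrpl-1, and lay 988 bp downstream of the 5′ end of mrps-24. The member mrpl-4 stands close behind mrps-2 on the same strand, and mrps-22 close behind dap-3, which encodes another protein of the small mitochondrial subunit, and none of these 4 genes was marked in its own window.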
